A study of Mus musculus with 10 samples.

Results

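The comparison described here sets 6 RNA-seq libraries of mouse progenitors cultured on the Notch ligand Delta1 against 4 libraries of the same starting cells cultured without it. All 10 libraries of the series belong to it. Its genes are those with complete separation: in each of the 6 Delta1 libraries the gene lay above, or in each it lay below, all 4 control libraries. Of 12221 genes tested, 4656 met that rule, with 2126 higher and 2530 lower in the Delta1 arm.

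All cultures began from LSK cells (Lin- SCA1+ KIT+, a bone marrow fraction rich in stem and multipotent progenitor cells) of C57BL/6J mice. The Delta1 arm was grown on immobilized Delta1ext-IgG with Retronectin, in medium with SCF, FLT-3 ligand, IL-6 and IL-11, and was sorted into 3 stages with 2 libraries each: DN1 (KIT++CD44+CD25-), DN2a (KIT++CD44+CD25+) and DN2b (KIT+CD44loCD25+). The control arm, labelled WT, was grown on human IgG1 in place of the ligand and harvested at day 14, in 4 libraries named D1, D2, R1 and R2. DN2a and DN2b cultures also received IL-7 and DN1 cultures did not, and no source describes a sort of the control cells. Ligand and sorting therefore changed together between the arms and cannot be told apart here, nor, for DN2a and DN2b, can IL-7, which the contrast of DN1 with the control does not hold. The day of harvest of the Delta1 libraries is not given in the labels. In the methods of the study IL-7 was added at day 14, so DN2a and DN2b were harvested after that day. Time in culture therefore also differed from the controls for these 2 stages. In these bulk samples fewer cells of a type and less RNA per cell cannot be told apart either. The labels carry a year for the Delta1 libraries, replicate 1 of each stage being from the earlier and replicate 2 from the later year. The control libraries carry none. Any difference between the arms in the date of preparation or sequencing therefore cannot be told apart from the ligand either. The methods of the study describe all 3 stages as sorted from each LSK replicate, so stages of the same year may share an isolate, and p-values measure the spread between these libraries.

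Delta-like ligands bind Notch receptors on a neighbouring cell, which frees the receptor's intracellular part to join RBPJ on DNA and switch on genes such as Hes1 and Dtx1. In the thymus this signal starts T cell development: progenitors gain TCF-1 and GATA3, turn on the CD3 complex and then BCL11B, and lose the capacity for other fates step by step. Without a Notch ligand, the same progenitors in myeloid cytokines give mainly granulocytes, monocytes, macrophages and mast cells.

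Between 12354635 and 35367925 reads per library fell on genes. Read counts are given as TMM-scaled CPM (counts scaled to a common library size), and a count of 3 corresponded to 0.107 to 0.239 CPM in the Delta1 arm and 0.0881 to 0.168 CPM in the control. Any 2 libraries of an arm correlated at r of 0.911 to 0.986 over genes (log10 of counts plus 1), against 0.849 to 0.916 between arms. Fewer genes were detected in the Delta1 libraries (12937 to 14310) than in the controls (15133 to 17089), and a larger share of reads matched no gene (4.76 to 10.01%, against 2.83 to 5.01%). Depth was lower too, with a median of 16931818 reads on genes in the Delta1 arm and 27474439 in the control. DN1 replicate 1 stood apart. It had the highest Delta1 median for most myeloid lists, and lay far above the other Delta1 libraries for those of late neutrophil granules, macrophages, mast cells and the erythroid and megakaryocyte lineages. For macrophages its lead was in the median only: the list summed to 389 CPM in this library and 521 CPM in DN1 replicate 2. Counts of passing and separated genes, in total and by list, are given both ways where leaving out DN1 replicate 1 changed them. Counts of level genes, gaps, stage differences, chromosomal runs and pseudogenes, and promoter shares, were not repeated without it. Xist spanned 0 to 86.4 CPM in the Delta1 arm and 1.23 to 63.9 CPM in the control, so the arms were not divided by sex.

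By edgeR's quasi-likelihood test of 6 against 4 libraries, 3208 genes (26.2% of those tested) were higher and 3415 (27.9%) lower in the Delta1 arm at an adjusted p under 0.05. Complete separation held for 17.4% of tested genes in the upward and 20.7% in the downward direction, and 2098 and 2493 of those genes also passed the test. Another 1110 genes passed upward, and 922 downward, while their libraries overlapped. For DN1 alone against the controls, a contrast without IL-7 and with 2 Delta1 libraries, 1193 genes passed upward and 1711 downward. Without DN1 replicate 1 the separated genes numbered 2745 and 3141. With scaling by library size alone, which shifted all fold changes by a median of 0.14 (log2), the split turned to 2648 higher and 2019 lower, so that the upward share rose from 45.7 to 56.7%. Genes named here whose separation was lost with that scaling are pointed out.

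The downward changes were the larger ones. Among separated genes the median size was 1.28 (log2) for the higher and 2.36 for the lower set. A clear gap, with the lowest library of one arm at least 2-fold above the highest of the other, was present for 432 higher and 1118 lower genes, and a 100-fold gap for 9 and 33. Values at or under 3 counts were set to 3 counts for these gaps. At the edge of the rule stood Stk25, whose lowest Delta1 and highest control value were both 38.0 CPM, and on the downward side Ogfrl1 at 71.3 CPM in both, and both overlapped when scaled by library size. Ppp1r12c lay just outside it on the downward side.

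**Figure D1:**
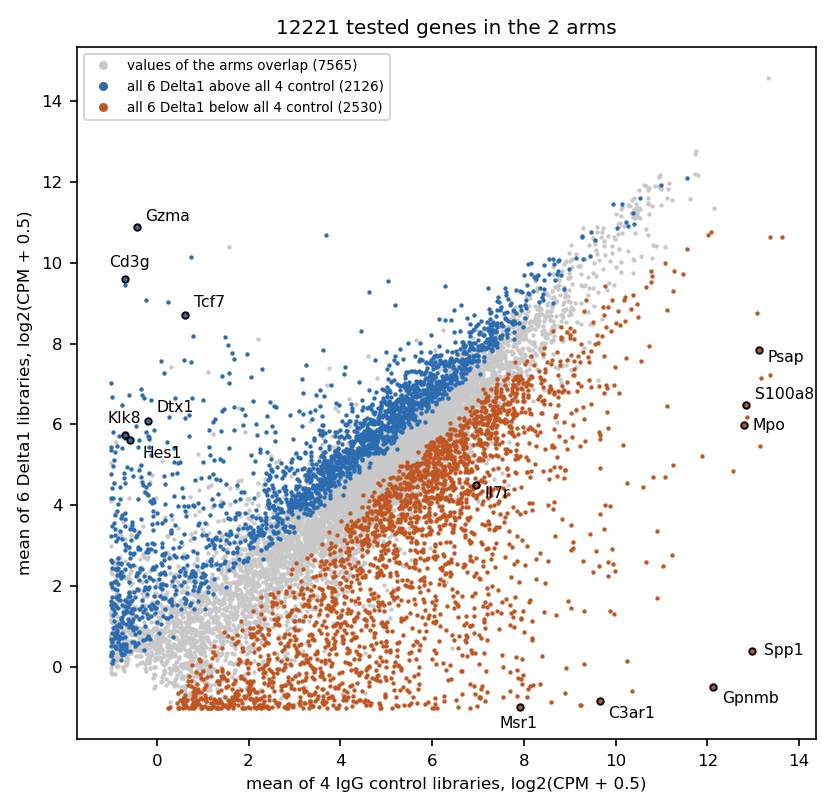
Each of 12221 tested genes is plotted by its mean in the 4 IgG control libraries (x) and the 6 Delta1 libraries (y), both as log2(CPM + 0.5). Blue genes were higher in every Delta1 library (2126), orange genes lower in every one (2530) and grey genes overlapped; the orange set reaches much farther from the diagonal than the blue one.

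Separated genes were level over the stages about as often as genes in general (3458 of 4656), the higher ones more often and the lower ones less often. Taking a gene as level when its DN1, DN2a and DN2b means lay within 2-fold of each other, again with values at or under 3 counts set to 3 counts, 1801 of the 2126 higher genes (84.7%) and 1657 of the 2530 lower genes (65.5%) were level, against 74.0% of all genes tested. Among the lower ones, 152 were never above 3 counts in the Delta1 arm and are level through that floor alone, which leaves 1505. A test of any difference between the 3 stages called 25 higher and 53 lower genes, or 1.18 and 2.09%, where it called 1.12% of all genes tested. That test rested on 2 libraries a stage. Of those 25 higher genes 24 peaked in DN2b, and of the 53 lower genes 48 kept their highest Delta1 value in DN1.

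Genes known as direct targets of Notch were strongly higher with Delta1. Of 15 tested genes of the Notch target list, 11 passed upward and 1 downward, against 26.2 and 27.9% of all genes tested. The same numbers were separated, against 17.4 and 20.7%. Without DN1 replicate 1 both were 10 and 1 of 14. The median log2 fold change of the list was 5.33 (4.86 with genes never above 3 counts in the controls at their bound) against 0.01 over all genes tested. The list also holds Il2ra, Tcf7 and Gata3, which belong to T lineage lists as well, and 8 of its 15 genes were level over the stages. Il2ra encodes CD25, on which the stages were sorted, so its level was in part fixed by the gates. Hes1, a transcriptional repressor and the best known target (chr16:30064384-30067796, mm10), was at 36.9, 46.8 and 66.6 CPM in the Delta1 libraries (lowest, median and highest) and at 0.056, 0.231, 0.0587 and 0.305 CPM in controls D1, D2, R1 and R2. The arms did not overlap, and the lowest Delta1 library stood 121-fold above the highest control (log2 fold change 8.14 ± 0.48, adjusted p = 2.96e-06). Its stage means differed by only 1.31-fold.

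Dtx1 encodes Deltex, a ubiquitin ligase that acts on Notch itself. It measured 47.5, 64 and 97.6 CPM against 0, 0.369, 0.675 and 0.458 CPM (log2 fold change 7.39 ± 0.62, adjusted p = 1.42e-05), again without overlap. Nrarp, a feedback inhibitor of the Notch complex, was at 65.9, 96.7 and 139 CPM against 0.28, 3.97, 0.264 and 1.59 CPM (log2 fold change 5.99 ± 0.78, adjusted p = 1.58e-04), its control values being less even than those of Dtx1. The receptor gene Notch3 was also higher in every Delta1 library, at 3.14, 5.75 and 12.5 CPM against 0.056, 0.507, 0.0587 and 0.0305 CPM (log2 fold change 5.33 ± 0.85, adjusted p = 5.35e-04). Hey1, a repressor related to Hes1, rose by less (log2 fold change 3.73 ± 0.98, adjusted p = 0.0082), and control D1 at 2.47 CPM came nearest to the Delta1 arm. Without D1 its log2 fold change was 5.87, and without D2, the control with the highest Nrarp and Notch3, those of Nrarp and Notch3 were 7.02 and 6.93. Ptcra, the surrogate alpha chain of the pre-T cell receptor, ranged over 2.23, 8.71 and 40.4 CPM in the Delta1 libraries and 0.504, 0.507, 0.44 and 0.305 CPM in the controls (log2 fold change 4.86 ± 0.84, adjusted p = 8.07e-04), with a log2 fold change of 4.04 without DN2b replicate 1. Cdca7, a gene tied to replication and chromatin, was separated at a smaller size (log2 fold change 1.70 ± 0.24, adjusted p = 2.61e-04).

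The 3 listed targets that did not pass were, all with overlapping arms, Notch1 (63.1, 75.2 and 104 against 47.2, 45.6, 79.1 and 94.1 CPM), Myc (124, 171 and 221 against 49.6, 137, 70.6 and 147 CPM) and Ccnd3 (141, 202 and 249 against 184, 292, 271 and 283 CPM). Myc passed without control D2 (adjusted p = 0.037) or R2 (adjusted p = 0.029). The 1 target that fell was Bcl2a1b, a survival gene of the BCL2 family that is also strong in granulocytes and has near-identical copies whose reads are hard to assign. It was at 0 to 0.26 CPM in the Delta1 arm and 42.9, 8.21, 18.7 and 6.29 CPM in the controls.

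To show the sequence context, the 250 bases before the start site of the separated Notch targets with a match to the RBPJ core TGGGAA (either strand, in capitals) are printed from the RefSeq promoter table (GRCm38.p6). Of the 11 higher targets 7 had a single promoter there, and 2 of those held a match within the 300-base window. Ptcra lies on the minus strand at chr17:46763713-46763962 and Cdca7 on the plus strand at chr2:72475969-72476218.
Ptcra: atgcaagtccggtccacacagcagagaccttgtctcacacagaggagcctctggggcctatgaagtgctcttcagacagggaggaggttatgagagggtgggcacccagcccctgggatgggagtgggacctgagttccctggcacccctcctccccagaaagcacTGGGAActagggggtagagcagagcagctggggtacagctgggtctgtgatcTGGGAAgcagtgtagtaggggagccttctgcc
Cdca7: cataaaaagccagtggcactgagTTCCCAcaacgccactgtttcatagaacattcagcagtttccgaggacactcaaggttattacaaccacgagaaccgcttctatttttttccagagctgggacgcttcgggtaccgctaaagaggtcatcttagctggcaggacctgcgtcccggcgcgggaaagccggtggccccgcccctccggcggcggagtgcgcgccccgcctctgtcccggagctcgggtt
Ptcra carried 2 matches and Cdca7 1. Over the whole signature the hexamer occurred in 24.5% of the single promoters of higher genes, 22.4% of those of lower genes and 22.9% of those of all genes tested. Among genes with a log2 change of at least 5 it occurred in 22.4% of higher and 25.8% of lower ones. A match is only a match of letters.

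Of 28 tested genes of the Notch pathway, the machinery that receives the signal, 4 passed upward and 14 downward, against 26.2 and 27.9% of all genes tested. Of these, 2 and 10 were separated, against 17.4 and 20.7%, and the median log2 fold change was -0.61. Without DN1 replicate 1, 16 passed downward and 12 were separated. Besides Notch3, the ligand genes Dll4 (at least 7.70-fold, adjusted p = 0.045) and Jag2 (log2 fold change 3.06 ± 1.07, adjusted p = 0.032) passed upward, both with overlap and at mean levels of 0.936 and 2.81 CPM in the Delta1 arm. Dll4 lost its call without any control (D1, D2, R1 or R2) or DN2a replicate 2, at adjusted p of 0.0562 to 0.106. Jag2 lost it without control D1, R1 or R2 or DN2b replicate 2, at adjusted p of 0.0632 to 0.0854, its log2 fold change being 2.05 without DN2b replicate 2 and 3.70 without control D2. Notch2 was the receptor that fell, at 16, 18.6 and 39.1 CPM against 132, 90.4, 147 and 163 CPM (log2 fold change -2.45 ± 0.31, adjusted p = 1.31e-04), and no library overlapped. Parts of the gamma-secretase complex that cuts Notch were lower in every Delta1 library: Ncstn (log2 fold change -1.41 ± 0.13, adjusted p = 2.33e-05), Psen2 (log2 fold change -2.60 ± 0.43, adjusted p = 6.56e-04) and Aph1a (log2 fold change -0.63 ± 0.12, adjusted p = 0.0015). Lower too were the sheddase gene Adam17, Numb, which encodes an inhibitor of the receptor, and the coactivator gene Maml1, although Maml1 overlapped with library size scaling. Rbpj itself was at 64.7, 113 and 138 CPM against 171, 229, 169 and 151 CPM, a narrow separation (log2 fold change -0.70 ± 0.21, adjusted p = 0.016) that library size scaling removed. The Fringe enzymes add sugars that tune the receptor's choice of ligand, and their genes parted: Mfng was higher in every Delta1 library (log2 fold change 1.59 ± 0.24, adjusted p = 3.65e-04) and Lfng lower (log2 fold change -1.38 ± 0.26, adjusted p = 0.0013).

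T lineage transcription factors gave 10 genes that passed upward and 2 downward of 17 tested, against 26.2 and 27.9% of all genes tested. Of these, 8 and 1 were separated, against 17.4 and 20.7%, and the median log2 fold change of the list was 1.34. Tcf7, which encodes TCF-1, was at 238, 474 and 550.4 CPM against 0.392, 1.89, 0.47 and 1.4 CPM. The lowest Delta1 library exceeded the highest control by 126-fold (log2 fold change 8.63 ± 0.62, adjusted p = 6.55e-06), and the DN1 libraries were already at a mean of 244 CPM. Gata3 was at 11.8, 30.5 and 55.9 CPM and 0.112, 0.231, 0.206 and 0.183 CPM (log2 fold change 7.25 ± 0.59, adjusted p = 1.17e-05), and Tox, a factor of early lymphoid development, at 4.93, 14.7 and 23 CPM and 0, 0, 0.176 and 0.0305 CPM (log2 fold change 7.72 ± 0.94, adjusted p = 1.10e-04). Both pairs of arms were wide apart, and Tox was at 9.502 (log2) without control R1. Sox4 (log2 fold change 3.36 ± 0.28, adjusted p = 1.30e-05) and Tcf12, which encodes the E protein HEB (log2 fold change 1.37 ± 0.28, adjusted p = 0.002), were separated from control values of 4.15 to 7.14 CPM and 33.9 to 60.6 CPM. Bcl11b, the commitment factor, was separated in all 6 libraries (log2 fold change 6.72 ± 1.05, adjusted p = 4.66e-04) although its stage means climbed from 1.78 CPM in DN1 to 22.7 CPM in DN2b.

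Other factors of the lineage were shared by the arms. Runx1 stood at 52.1, 69.7 and 86.6 CPM and 61.3, 58.8, 61.8 and 83 CPM, and Ikzf1, which encodes Ikaros, at 233, 250.4 and 291 CPM and 169, 307, 176 and 229.9 CPM. The arms overlapped for both, with log2 fold changes of 0.07 (adjusted p = 0.78) and 0.21 (adjusted p = 0.35). Ikzf1 passed without control D2 (log2 fold change 0.41, adjusted p = 0.037). Zbtb7a, a repressor known to oppose Notch-driven T cell fate in bone marrow, was lower in every Delta1 library (log2 fold change -1.94 ± 0.31, adjusted p = 5.62e-04), but overlapped with library size scaling. Gfi1 passed downward with overlap (log2 fold change -2.37 ± 0.50, adjusted p = 0.0026), at -1.75 without control D2.

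The T cell receptor complex and its signalling chain were the most one-sided of the lymphoid lists. There 18 of 19 tested genes passed, all upward, against 26.2% of all genes tested. Of the list 15 were separated, against 17.4%, and the median log2 fold change was 5.92, or 5.45 with bounds. The separated ones numbered 17 without DN1 replicate 1. Cd3g was at 30.4, 630.1 and 2019.6 CPM in the Delta1 libraries and 0.112, 0.138, 0.0587 and 0.183 CPM in the controls (log2 fold change 12.55 ± 1.56, adjusted p = 1.21e-04). Even its lowest DN1 library was 166-fold above the highest control, and its stage means rose 25.7-fold from DN1 to DN2b (stage test adjusted p = 0.018). In the list 4 of the 19 genes were level over the 3 stages, against 74.0% of all genes tested. The stage test called 6 of the 19, against 1.12%. Some signalling genes were among the level ones. The adaptor gene Tespa1 was at 44.4, 55 and 73.7 CPM against 1.18, 4.38, 1.5 and 1.53 CPM (log2 fold change 4.73 ± 0.42, adjusted p = 1.83e-05), with a stage range of 1.38-fold. Prkcq, which encodes protein kinase C theta, was at 30.6, 42.2 and 56.7 CPM against 0.728, 1.61, 0.206 and 0.61 CPM (log2 fold change 5.77 ± 0.52, adjusted p = 1.92e-05) with a range of 1.48-fold. Without control D2 their log2 fold changes were 5.33 and 6.39. The kinase gene Fyn (log2 fold change 1.89 ± 0.20, adjusted p = 5.57e-05) was level as well, whereas Lck spread over 33.2, 299 and 606 CPM. Cd3d and Themis passed but overlapped, with a DN1 library inside the control range for each. Lcp2, an adaptor gene, did not pass (log2 fold change 0.42 ± 0.18, adjusted p = 0.075) but did with library size scaling or without control D2 (adjusted p = 0.030).

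**Figure D2:**
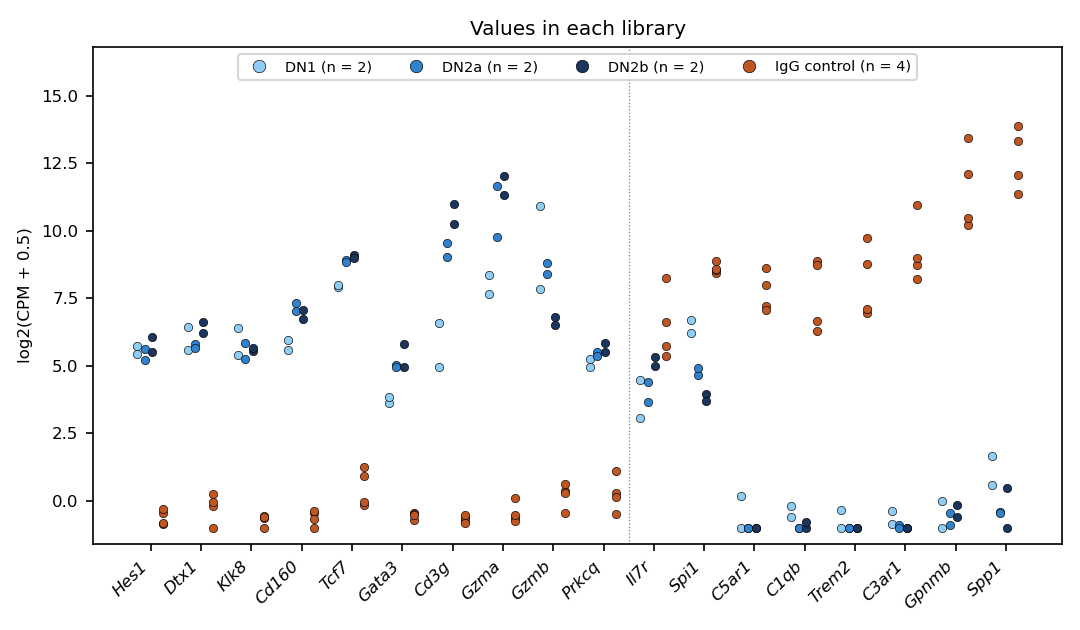
Values of 18 genes in each library as log2(CPM + 0.5), with DN1, DN2a and DN2b in 3 shades of blue (n = 2 each) and the IgG control in orange (n = 4). For the genes left of the dotted line every blue point lies above every orange one, for those right of it below; Il7r shows the narrowest gap, at 1.02-fold.

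Of 12 tested T cell surface genes 7 passed upward and 2 downward, or 3 downward without DN1 replicate 1, against 26.2 and 27.9% of all genes tested. Cd7 (56.4, 76.1 and 163 against 0.616, 0.784, 1.32 and 0.58 CPM, log2 fold change 6.89 ± 0.50, adjusted p = 6.55e-06) and the costimulatory receptor gene Cd27 (58.4, 72.3 and 134 against 1.34, 2.31, 1.91 and 3.2 CPM, log2 fold change 5.18 ± 0.36, adjusted p = 5.73e-06) were raised at all stages without overlap. Ctla4, an inhibitory receptor best known on activated T cells, was present in every Delta1 library and at 0 or 1 count in the controls, which makes it at least 834-fold higher on the means (fitted log2 fold change 12.71, and 14.15 without control D2). Il7r, the receptor chain for IL-7, was lower with Delta1: it was at 7.94, 21 and 39.3 CPM in the Delta1 arm and 306, 39.998, 97.2 and 52.6 CPM in the controls (log2 fold change -2.49 ± 0.59, adjusted p = 0.0051). The separation was narrow and was lost with library size scaling, and control D1 stood well above the other controls. Without D1 the log2 fold change was -1.53. Cd44, 1 of the markers used for sorting, was lower in every Delta1 library (log2 fold change -2.82 ± 0.67, adjusted p = 0.0049), with stage means of 138, 49.3 and 12.2 CPM.

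The list of lymphoid cytokine receptors and signalling genes counts the GIMAP family. Of its 25 tested genes 16 passed upward and 3 downward, or 18 and 3 without DN1 replicate 1. The shares over all genes tested were 26.2 and 27.9%. Il12rb2, a receptor chain for IL-12, was at 27.1, 40.3 and 61.2 CPM against 2.24, 0.784, 2.55 and 1.22 CPM (log2 fold change 4.65 ± 0.41, adjusted p = 1.81e-05) and varied by 1.38-fold over the stages. Il9r was low but present in every Delta1 library, at 2.53, 3.2 and 6.38 CPM, and at no more than 3 counts in any control, so that it was at least 31.5-fold higher (fitted log2 fold change 7.22, and 9.42 without control D2). Il4ra, the IL-4 receptor chain, fell (log2 fold change -2.03 ± 0.37, adjusted p = 0.0011), its arms overlapping with library size scaling. The shared chain gene Il2rg (135, 185 and 218 against 188, 208, 212 and 131 CPM) and the kinases Jak1 and Jak3 had overlapping arms and log2 fold changes of -0.05, -0.18 and -0.12.

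Granzyme genes were higher in the Delta1 arm, by very different margins. Gzma, which encodes granzyme A, was at 203, 1699.6 and 4159 CPM against 0.56, 0.138, 0.0881 and 0.183 CPM, a gap of 363-fold (log2 fold change 13.01 ± 1.41, adjusted p = 5.65e-05). Gzmb was at 90.4, 285 and 1939.8 CPM against 0.784, 1.01, 0.235 and 0.732 CPM (log2 fold change 9.59 ± 1.26, adjusted p = 1.71e-04). The arms were far apart for both, but the stages ran in opposite order: the means for Gzma were 267, 2059 and 3348 CPM from DN1 to DN2b, and those for Gzmb 1085, 389.9 and 101 CPM. Neither passed the stage test (adjusted p = 0.11 and 0.2), and the DN1 mean of Gzmb was carried by replicate 1, without which its log2 fold change was 8.48. That of Gzma was 13.70 without control D1. Gzmc was separated by only 1.09-fold, at a mean of 0.639 CPM with Delta1 (log2 fold change 3.01 ± 0.97, adjusted p = 0.022), was at 3.82 (log2) without control D2 and lost its call without R1 (adjusted p = 0.071). Cd160, a receptor of cytotoxic lymphocytes, was at 47, 118 and 158 CPM against 0, 0.231, 0.117 and 0.275 CPM (log2 fold change 9.27 ± 0.66, adjusted p = 6.52e-06). In the natural killer and innate lymphoid list 5 of 10 tested genes passed upward, against 26.2% of all genes tested. Without DN1 replicate 1, 4 of 9 passed upward and 1 downward. Nkg7, a granule membrane protein gene, did not pass (log2 fold change 1.63 ± 0.68, adjusted p = 0.063), control D2 reaching 185 CPM, although it passed and separated with library size scaling and passed without D2 (log2 fold change 3.08, adjusted p = 3.65e-04). Prf1, Ncr1, Eomes and Tbx21 were too low to test.

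Genes without an obvious lymphoid role also marked the Delta1 arm at all stages. Klk8, a secreted serine protease of the kallikrein family, was at 37.7, 48.1 and 84.2 CPM against 0.168, 0.138, 0 and 0.153 CPM (log2 fold change 8.87 ± 0.59, adjusted p = 5.33e-06), with stage means within 1.33-fold. Sstr2, a somatostatin receptor gene, was at 4.15, 9.37 and 19 CPM and at 3 counts or fewer in each control, at least 83.6-fold higher. H19, an imprinted noncoding RNA, was at 14.6, 53.5 and 272 CPM and likewise at 3 counts or fewer in the controls, at least 735-fold higher, with a wide spread among the Delta1 libraries. Its fitted log2 fold change was 10.07, and 9.31 without DN1 replicate 1, the highest of them. Tmem121 had a gap of 68.4-fold (log2 fold change 8.75 ± 0.73, adjusted p = 1.42e-05).

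Processed pseudogenes took some of the widest upward gaps. Among the 10 largest upward level changes stood the processed pseudogenes Rpl14-ps1, Rpl31-ps12 and Gm5643 and the predicted genes Gm3258 and Gm9833. The others were Klk8, A730098P11Rik, Hes1, Psme2b and Sstr2. Summed over tested processed pseudogenes, the level was 1226 to 3695 CPM in the Delta1 libraries and 131 to 330 CPM in the controls. Of 45 tested genes that GENCODE vM21 annotates as such, 25 were separated upward and 4 downward, with a median log2 fold change of 3.40, against 17.4 and 20.7% of all genes tested. Rpl14-ps1 showed the widest upward gap: 329.6, 717 and 972 CPM in the Delta1 libraries and 0.112, 0.138, 0.147 and 0.061 CPM in the controls. Its parent gene Rpl14, which encodes a ribosomal protein, was at 936, 1028 and 1252 CPM against 342, 753, 293 and 320.01 CPM (log2 fold change 1.31 ± 0.28, adjusted p = 0.0026). Rpl31-ps12 (log2 fold change 10.63 ± 0.72, adjusted p = 5.58e-06, and 11.27 without control D2) and its parent Rpl31 (log2 fold change 0.64 ± 0.29, adjusted p = 0.081) parted in the same way, the parent passing only with library size scaling or without control D2 (log2 fold change 1.09, adjusted p = 6.99e-04). Reads of 36 bases from near-identical copies are uncertain, so these values cannot be assigned to a single locus, and the part of read placement in the result was not tested. Leaving all pseudogenes out gave 2090 higher and 2513 lower separated genes.

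Of 26 tested cell cycle genes 14 passed upward, against 26.2% of all genes tested, and 8 were separated, against 17.4% (14 upward and 1 downward without DN1 replicate 1, 9 separated). Their median log2 fold change was 0.64. The helicase genes Mcm6 (log2 fold change 1.55 ± 0.21, adjusted p = 2.15e-04) and Mcm7 (log2 fold change 1.37 ± 0.25, adjusted p = 0.0011), and Rrm1 and Tyms, which serve nucleotide supply, were higher in every Delta1 library. Mki67, a general marker of dividing cells, ranged over 16, 34.4 and 199 CPM in the Delta1 libraries and 29.8, 9.96, 199 and 366 CPM in the controls and did not pass (log2 fold change -1.29 ± 0.94, adjusted p = 0.26). Among 19 progenitor genes 4 passed upward and 2 downward (4 and 4 of 18 without DN1 replicate 1), below the 26.2 and 27.9% of all genes tested, and Mycn and Erg were separated upward. Mycn, a MYC family factor, was at 5.54, 22.7 and 56.9 CPM against 0.168, 0.415, 0.0294 and 0.183 CPM (log2 fold change 7.05 ± 0.92, adjusted p = 1.65e-04, and 7.67 without control D2), and Erg, a stem and progenitor factor that falls with T cell commitment, at 30.2, 33.2 and 41.1 CPM against 6.11, 17.3, 16.4 and 13.9 CPM (log2 fold change 1.38 ± 0.27, adjusted p = 0.0017). Kit, also a sort marker, passed with a slight overlap, the highest control at 134 CPM lying above the lowest Delta1 library at 130.4 CPM, and was separated with library size scaling. Ly6a, which encodes SCA1, was lower in every Delta1 library (log2 fold change -1.68 ± 0.37, adjusted p = 0.0031).

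**Figure D3:**
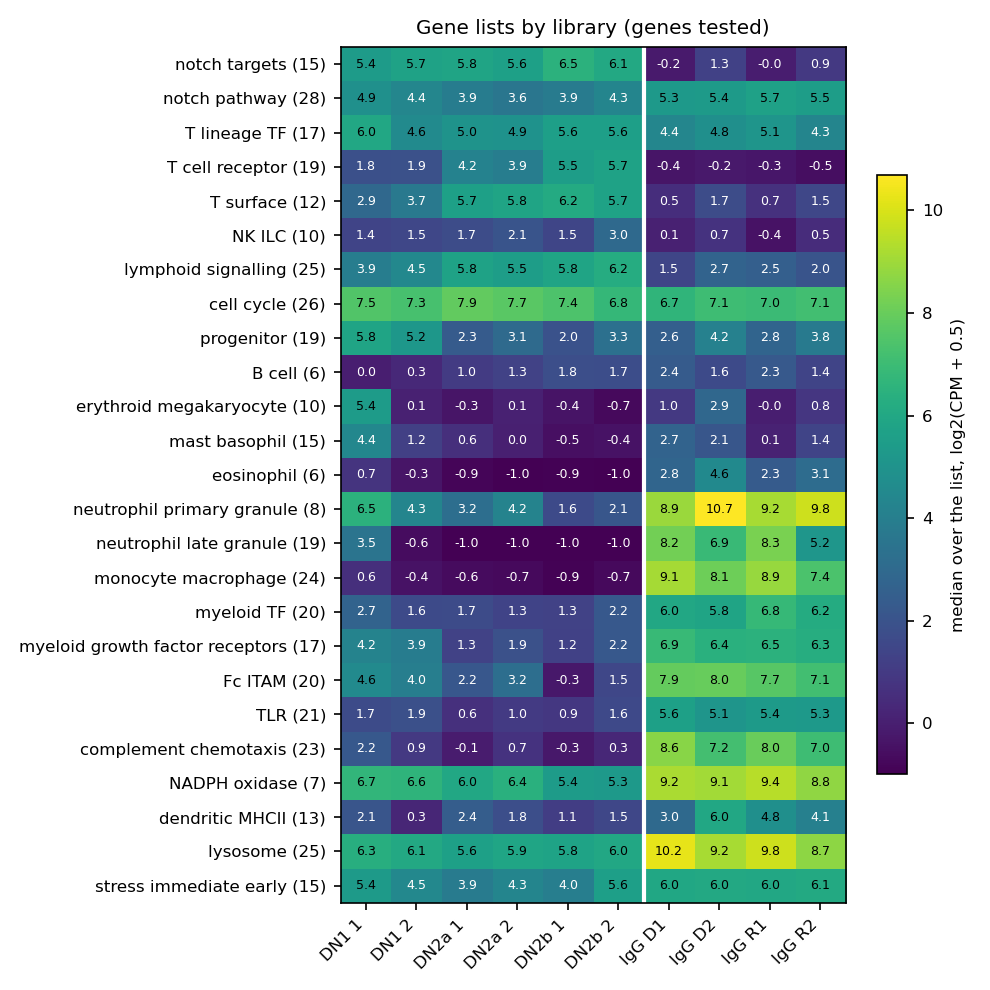
Median level of each gene list in each library, as log2(CPM + 0.5), with the number of genes tested in parentheses; Delta1 libraries stand left of the white line and IgG controls right of it, and numbers follow group names as replicates. The T cell receptor, T cell surface and lymphoid signalling lists are brighter on the left and the neutrophil granule, macrophage and lysosome lists on the right, whereas the T lineage factor and B cell lists overlap, and DN1 replicate 1 is the brightest Delta1 library for late neutrophil granules at 3.5 and for mast cells at 4.4.

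Macrophage genes were far higher in the control cultures. All 24 tested genes of the monocyte and macrophage list passed downward in the Delta1 arm and 23 were separated, against 27.9 and 20.7% of all genes tested. The median log2 fold change was -9.83, or -9.36 with genes at or under 3 counts throughout the Delta1 arm placed at their bound. Without DN1 replicate 1, 23 passed, 23 were separated and the median was -12.36. Gpnmb, a glycoprotein of lipid-laden macrophages (chr6:49036546-49070929, mm10), was at 0 to 0.482 CPM in the Delta1 libraries and at 10899, 1193, 4405 and 1427 CPM in the controls. The lowest control was 2473-fold above the highest Delta1 library, the widest gap of either direction, and controls D1 and R1 exceeded D2 and R2. Its log2 fold change of -14.30 became -13.37 without control D1. Spp1, which encodes osteopontin, reached 14937, 4317, 10102 and 2598 CPM in the controls against 0 to 2.63 CPM (log2 fold change -13.17 ± 1.17, adjusted p = 1.83e-05), and at -14.04 (log2) without DN1 replicate 1. Trem2, a lipid receptor of macrophages, was at 856, 124, 433 and 137 CPM against 0 to 0.297 CPM (log2 fold change -12.40 ± 1.02, adjusted p = 1.25e-05). Its log2 fold change was -16.04 without DN1 replicate 1, which held all its Delta1 reads, and -11.66 without control D1. Msr1, the class A scavenger receptor, never exceeded 1 count in a Delta1 library and was at 514, 124, 224 and 103 CPM in the controls, at least 1405-fold lower with Delta1. Its fitted log2 fold change was -14.06, and -13.39 without control D1, where it was highest, and -15.35 without DN2a replicate 1, which held its only Delta1 read. Mmp12, the macrophage elastase, was at 1528, 270.1, 519.9 and 77.1 CPM in the controls and held 1 read in each of 2 Delta1 libraries, at least 3487-fold lower. Its fitted value of -14.67 became -13.63 without control D1, again the highest, and -15.29 without DN2b replicate 2.

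The complement system was part of this. C1qb, a chain of the recognition molecule C1q, was at 475, 76.8, 421 and 101 CPM in the controls and at most 0.371 CPM in the Delta1 arm (log2 fold change -11.10 ± 0.92, adjusted p = 1.34e-05), and C1qa had no count in any Delta1 library. The anaphylatoxin receptor genes C3ar1 (1997, 429, 505 and 293 CPM) and C5ar1 (396, 148, 253 and 131 CPM) were at most at 0.26 and 0.631 CPM with Delta1. The complement and chemotaxis list shares C1q with the macrophage list. Of its 23 tested genes 21 passed, all downward, against 27.9% of all genes tested. Of the 23, 20 were separated (21 without DN1 replicate 1), against 20.7%. Ccl6, a chemokine of myeloid cells, was at 1495, 415, 1569 and 289 CPM against 0.43, 1.65 and 5.82 CPM (log2 fold change -8.79 ± 0.88, adjusted p = 3.73e-05). Leaving out DN1 replicate 1 put C1qb at -12.36 and Ccl6 at -9.48 (log2). Itgax and Cx3cr1 did not pass, with log2 fold changes of 0.04 and -0.95, but Cx3cr1 passed at -1.96 without DN1 replicate 1. Ccr2, the receptor of inflammatory monocytes, passed with overlap (log2 fold change -2.52 ± 0.89, adjusted p = 0.033), DN1 replicate 2 reaching 455 CPM. It was at -3.42 without DN1 replicate 2. Its call was lost, at adjusted p of 0.0505 to 0.0737, without DN1 replicate 1, DN2a replicate 2 or control D2, R1 or R2.

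Promoters of 2 of these genes are printed because they sit among the 15 widest gaps, have 1 promoter in the table and hold the core of the PU.1 site, GAGGAA (either strand, in capitals). Trem2 is on the plus strand at chr17:48346151-48346400 and C1qb on the minus strand at chr4:136886201-136886450, again 250 bases before the start (GRCm38.p6).
Trem2: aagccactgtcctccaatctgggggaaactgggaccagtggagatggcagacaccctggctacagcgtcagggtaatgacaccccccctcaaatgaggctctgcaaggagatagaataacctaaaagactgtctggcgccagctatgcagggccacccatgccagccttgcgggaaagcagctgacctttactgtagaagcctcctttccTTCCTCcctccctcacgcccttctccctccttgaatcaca
C1qb: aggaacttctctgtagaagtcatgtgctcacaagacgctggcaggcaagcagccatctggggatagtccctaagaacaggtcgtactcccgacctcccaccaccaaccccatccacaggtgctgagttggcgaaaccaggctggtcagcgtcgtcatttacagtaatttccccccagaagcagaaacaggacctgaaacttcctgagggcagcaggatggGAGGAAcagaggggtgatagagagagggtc
The hexamer was found in 31.0% of the single promoters of lower genes, 25.6% of those of higher genes and 27.3% of those of all genes tested. Among lower genes with a log2 change of at least 5 it was found in 39.4%, and among higher genes of that size in 32.7%. The E box CACGTG was in 11.9, 10.8 and 10.3% of lower, higher and all tested promoters.

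Neutrophil genes were also far higher in the controls but left a trace in DN1. Of 19 tested late granule genes 16 passed downward and 16 were separated, and of 8 primary granule genes 5 and 5, with medians of -6.63 and -5.97 (log2). Among all genes tested 27.9% passed and 20.7% were separated downward. S100a8, a calcium-binding alarmin subunit of neutrophils, was at 6215, 12015, 7217 and 3989 CPM in the controls and 0, 0.0935 and 517 CPM in the Delta1 arm (log2 fold change -6.38 ± 2.32, adjusted p = 0.038), where DN1 replicate 1 held the 517 and both DN2b libraries under 0.1 CPM. Its partner S100a9 was separated but missed the threshold (log2 fold change -6.14 ± 2.41, adjusted p = 0.051), which it passed without DN1 replicate 1 (log2 fold change -11.58, adjusted p = 7.19e-04). Mpo, which encodes myeloperoxidase, was at 2958, 14448, 4251 and 6716 CPM against 0.0667, 3.3 and 343 CPM (log2 fold change -6.83 ± 1.91, adjusted p = 0.012), and its stage means were 183, 3.3 and 0.232 CPM. S100a8 lost its call when any control (D1, D2, R1 or R2), DN1 replicate 2 or either DN2a library was left out, with adjusted p of 0.0523 to 0.0693. Without DN1 replicate 1 its log2 fold change was -11.33 and that of Mpo -10.14, and Mpo was at -6.22 without control D2. With DN1 replicate 1 left out the median of the primary granule list was -7.37 and that of the late granule list -12.07, all 18 late granule genes then tested passed, and all 18 were separated. Cxcr2, the neutrophil chemokine receptor, was level instead, at 1.68, 2.38 and 4.12 CPM against 76, 44.7, 69.7 and 35.2 CPM (log2 fold change -4.46 ± 0.31, adjusted p = 5.73e-06). Prss57 was a granule protease gene of the list that did not pass: 14.2, 95.1 and 136 CPM against 25.2, 138, 43.7 and 51.7 CPM (log2 fold change 0.30 ± 0.64, adjusted p = 0.71).

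Myeloid transcription factor genes fell as well. Of 20 tested, 18 passed downward and 14 were separated (17 and 15 without DN1 replicate 1), against 27.9 and 20.7% of all genes tested. The median log2 fold change was -4.07. Spi1, which encodes PU.1, was at 12.3, 27.1 and 104 CPM against 347, 375, 465 and 379.6 CPM (log2 fold change -3.18 ± 0.56, adjusted p = 9.40e-04), and stepped down from 88.2 CPM in DN1 to 27.1 in DN2a and 13.7 in DN2b (stage test adjusted p = 0.007). Cebpa, the factor of granulocyte and monocyte fate, was at 0 to 12.5 CPM against 262, 226, 168 and 173 CPM (log2 fold change -6.35 ± 1.30, adjusted p = 0.0021). Irf8, needed for monocytes and dendritic cells, was low at every stage, at 4.39, 6.81 and 10.8 CPM against 168, 111, 134 and 165 CPM (log2 fold change -4.35 ± 0.25, adjusted p = 2.66e-06). Id2, an inhibitor of E proteins, was lower in every Delta1 library (log2 fold change -2.67 ± 0.39, adjusted p = 3.19e-04). Cebpa was at -8.89 without DN1 replicate 1. Klf4 and Egr1 did not pass, at log2 fold changes of -1.63 and -0.30, but Klf4 passed at -2.53 without DN2b replicate 2.

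Receptors for the myeloid cytokines followed. Of 17 tested, 10 passed downward, all separated, and 1 upward, or 11 and 2 without DN1 replicate 1. Among all genes tested 27.9% passed downward, 20.7% were separated downward and 26.2% passed upward. Csf1r, the M-CSF receptor, was at 1304, 591, 1249 and 707 CPM in the controls and 0 to 23.8 CPM with Delta1 (log2 fold change -7.07 ± 1.63, adjusted p = 0.0042), the Delta1 reads being almost all in DN1 (mean 21.1 CPM). Csf2ra, the GM-CSF receptor alpha chain, was at 1.93, 3.33 and 12.3 CPM against 118, 118, 140.03 and 123 CPM (log2 fold change -4.77 ± 0.50, adjusted p = 4.52e-05), and Csf3r, the G-CSF receptor, at 0 to 8.16 CPM against 145, 256, 233 and 197 CPM (log2 fold change -6.96 ± 1.29, adjusted p = 0.0012). Both chains of the IL-6 receptor were lower, Il6ra (log2 fold change -6.03 ± 1.15, adjusted p = 0.0015) and Il6st (log2 fold change -3.38 ± 0.44, adjusted p = 1.69e-04). Without DN1 replicate 1 the log2 fold changes of Csf2ra, Csf3r and Il6ra were -5.39, -9.60 and -7.30, and without DN1 replicate 2 that of Csf1r was -7.96. With all libraries the gene that passed upward was Kit.

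Fc receptors and Toll-like receptors were lower in the Delta1 arm. In the Fc receptor and ITAM list 19 of 20 genes passed and 19 were separated, and in the Toll-like receptor list 19 of 21 passed and 16 were separated (17 without DN1 replicate 1), both downward. The shares over all genes tested were 27.9% passing and 20.7% separated downward. Fcgr1, the high-affinity IgG receptor, was at 0, 0.368 and 0.748 CPM against 427, 291, 141 and 152 CPM (log2 fold change -9.35 ± 0.66, adjusted p = 5.89e-06). Tlr2 was at 1.04, 1.86 and 3.04 CPM against 117, 146, 193 and 131 CPM (log2 fold change -6.21 ± 0.34, adjusted p = 2.53e-06), and Tlr8 and Tlr13 were at most at 0.148 and 1.26 CPM with Delta1. Tlr12, a sensor of profilin, was the 1 receptor that went up: 5.68, 19.5 and 44.7 CPM against 0.168, 0.877, 0.117 and 0.244 CPM (log2 fold change 5.94 ± 0.80, adjusted p = 2.00e-04), with no overlap, and was at 6.88 (log2) without control D2. Cd300a was separated without passing (log2 fold change -2.39 ± 1.18, adjusted p = 0.11), its DN1 mean being 75.4 CPM and its DN2b mean 0.505 CPM.

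Lysosomal genes fell from very high control levels to a steady Delta1 level. Of 25 tested, 24 passed downward and 22 were separated (23 without DN1 replicate 1), against 27.9 and 20.7% of all genes tested. The median log2 fold change was -2.91 (-3.72 without that library). Psap, the precursor of the saposins, was at 166, 239.7 and 285 CPM against 13271, 5819, 10551 and 6094 CPM (log2 fold change -5.28 ± 0.30, adjusted p = 2.66e-06). The cathepsin genes Ctsb (117, 145 and 169 against 18257, 3242, 11813 and 3726 CPM) and Ctsd (389.7, 428 and 473 against 18642, 1925, 11024 and 2947 CPM) were nearly constant within the Delta1 arm while controls D1 and R1 held several times the level of D2 and R2. Acp5 was the one that did not pass (log2 fold change -0.60 ± 0.51, adjusted p = 0.33). In the NADPH oxidase list 6 of 7 passed downward and were separated, against 27.9 and 20.7% of all genes tested. Cyba, a membrane subunit, was level over the stages (81.8, 108 and 141 against 945, 821, 1118 and 555 CPM, log2 fold change -2.98 ± 0.23, adjusted p = 9.91e-06), whereas its partner Cybb kept a mean of 13.8 CPM in DN1 and was at most at 0.239 CPM later. Rac1, a small GTPase of wide use, did not pass (log2 fold change -0.28 ± 0.15, adjusted p = 0.13).

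Antigen presentation, eosinophil and mast cell genes gave a mixed picture in which the controls differed among themselves. Of 13 tested dendritic cell and MHC class II genes 10 passed downward and 9 were separated, against 27.9 and 20.7% of all genes tested. H2-Aa, an MHC class II chain, was at 13.1, 511, 39.3 and 19.3 CPM in the controls, with D2 far above the rest, and 0.648, 3.63 and 5.01 CPM with Delta1 (log2 fold change -5.43 ± 1.05, adjusted p = 0.0016). Without D2 the log2 fold change was -2.82. Of 6 eosinophil genes 4 passed downward and 3 were separated (4 without DN1 replicate 1), against the same 27.9 and 20.7%. Mast cell and basophil genes split 5 upward and 4 downward of 15 tested, close to the 26.2 and 27.9% over all genes. Cpa3, mast cell carboxypeptidase, was higher in every Delta1 library, at 257, 412 and 987 CPM against 51.2, 69.3, 8.57 and 15.9 CPM (log2 fold change 3.77 ± 0.66, adjusted p = 9.00e-04), and so was Il4 at a low level (log2 fold change 4.41 ± 0.84, adjusted p = 0.0014). Tpsb2, a tryptase, was the reverse, at 0 or 1 count with Delta1 and 21, 4.11, 0.617 and 3.66 CPM in the controls. Mcpt1, a mast cell chymase, passed upward with overlap (log2 fold change 9.11 ± 2.82, adjusted p = 0.019): it was at 6269 CPM in DN1 replicate 1 and 4.21 CPM in the lowest DN2b library, and up to 6.11 CPM in the controls. Mcpt1 lost its call without control R1 (adjusted p = 0.051), and was at 7.23 (log2) without DN1 replicate 1 and 10.06 without control D1. The mast cell list without DN1 replicate 1 gave 3 upward and 5 downward, and its median turned from 1.11 to -0.52.

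Lists for other lineages were mixed, and the shares called in those of B cells and stress were near the 26.2% upward and 27.9% downward of all genes tested or below them. Of 6 tested B cell genes 2 passed upward (Vpreb1 and Pou2af1) and 2 downward (Blnk and Cd22), while Pax5 and Cd79a were too low to test. Of 10 erythroid and megakaryocyte genes 1 passed upward (Itga2b) and 2 downward (Pf4 and Ppbp), and their median of 1.68 turned to -5.02 without DN1 replicate 1, where 7 could still be tested, 1 passing upward and 4 downward. In the immediate early and stress list 1 gene passed upward and 4 downward of 15. Atf3 (log2 fold change -6.68 ± 0.73, adjusted p = 5.91e-05) and Zfp36 (log2 fold change -3.01 ± 0.39, adjusted p = 1.55e-04), both induced by inflammatory signals, were lower in every Delta1 library, Atf3 at -7.45 without DN2b replicate 2.

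**Figure D4:**
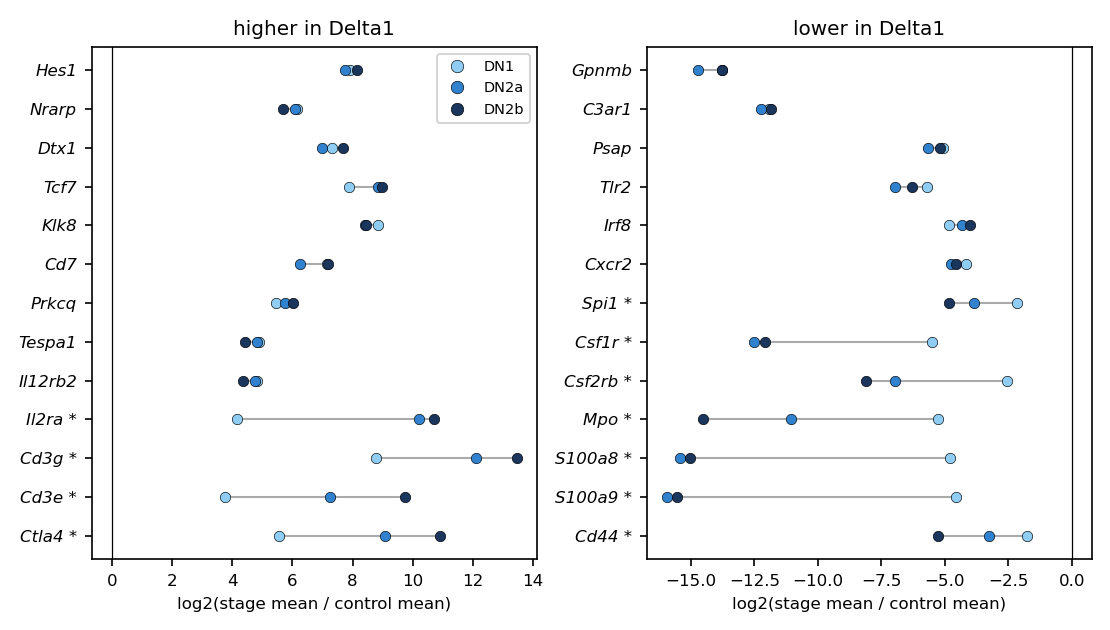
For 13 higher and 13 lower genes, the mean of DN1, DN2a and DN2b (n = 2 each, shades of blue) over the control mean (n = 4), as log2 with values at or under 3 counts set to 3 counts; an asterisk marks an adjusted p under 0.05 for a difference between stages. Hes1, Tespa1, Psap and Cxcr2 form tight triplets far from 0, whereas S100a8, Mpo and Csf1r are nearest to the control in DN1 and Il2ra, whose product CD25 was gated on, and Cd3g farthest from it in DN2b.

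Some of the separated genes were neighbours on a chromosome. Along tested genes in order of position, 5 runs of 5 or more neighbours were all higher and 18 all lower. The longest, 10 genes over 165 kb of chromosome 6 (48589445 to 48754210, mm10), held 7 genes of the GIMAP family of lymphocyte GTPases: Gimap8, Gimap9, Gimap4, Gimap6, Gimap7, Gimap1 and Gimap5. Gimap1 was at 10.7, 67 and 136 CPM against 0.504, 2.08, 0.646 and 0.946 CPM (log2 fold change 6.08 ± 0.86, adjusted p = 2.60e-04), and Gimap7 had no count in any control, which makes it at least 146-fold higher. The next member, Gimap3, passed but overlapped, with no count in either DN1 library, and lost its call without control R1 (adjusted p = 0.055) or R2 (adjusted p = 0.052). Among downward runs, 8 genes of chromosome 17 (48125605 to 48354147) included Trem1, Trem3, Treml4, Treml2 and Trem2, and 7 of chromosome 11 (82951349 to 83190216) were all Slfn genes. Ifit2, Ifit3 and Ifit1, which respond to interferon, formed a run with Fas and Lipa on chromosome 19, and the receptor genes Ifnar2, Il10rb, Ifnar1 and Ifngr2 another on chromosome 16. Ifit1 was at 30.2, 72.4, 16.1 and 26.9 CPM in the controls and at most 0.223 CPM with Delta1. Neighbours in a family can share reads, and no test of clustering was made.

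**Figure D5:**
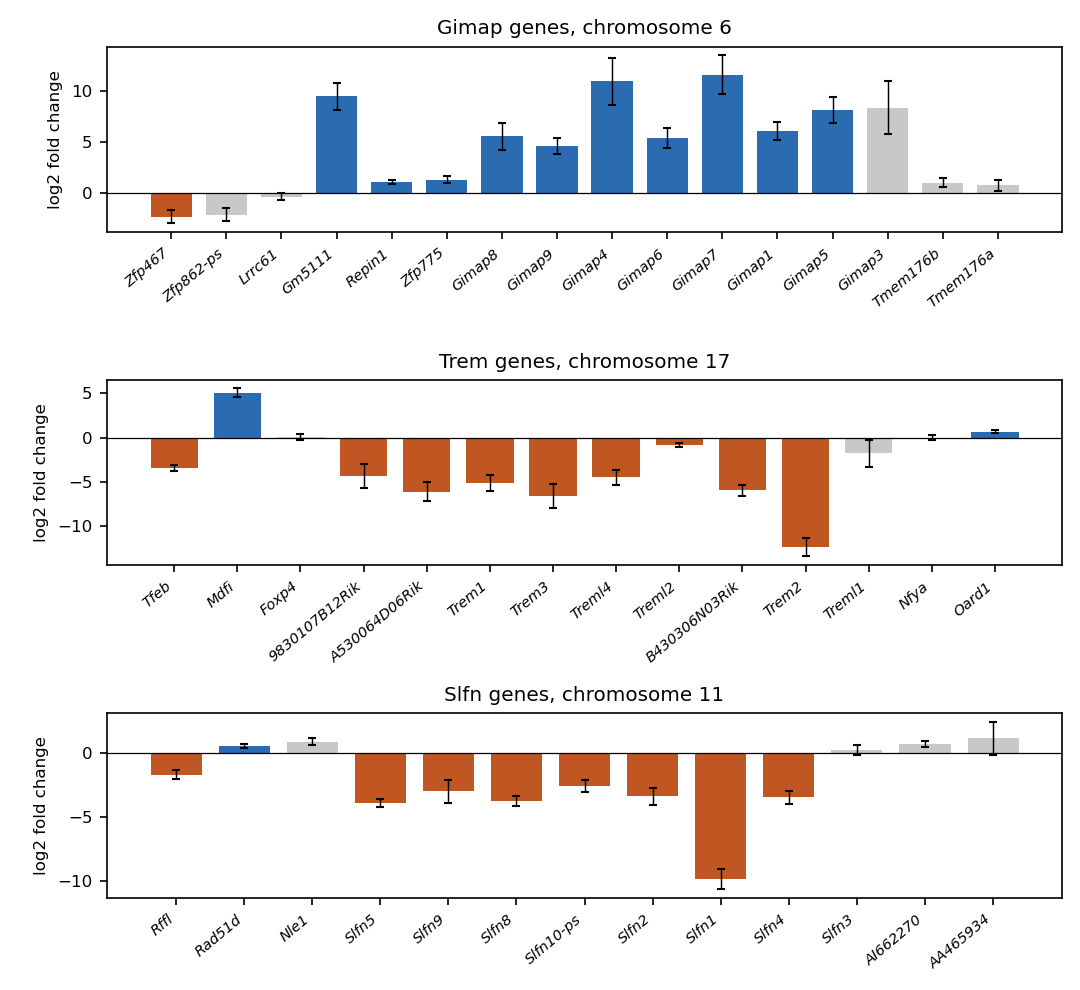
Fitted log2 fold change (Delta1 over control, bars, with standard errors) of tested genes in chromosomal order around the Gimap, Trem and Slfn genes, with 3 flanking genes on each side; blue and orange bars are separated upward and downward, grey bars overlap. Folds of genes with no count in one arm depend on the small count added in the fit. Flanking genes vary: Lrrc61, Foxp4 and Slfn3 lie near 0, whereas Gimap3 and Mdfi are higher and Zfp467, Tfeb and Rffl lower.

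Promoters of the most changed genes had a low CpG content in both directions. The ratio of observed to expected CpG in the 300-base window had a median of 0.78 for all genes tested, 0.81 for higher and 0.69 for lower separated genes. For separated genes with a log2 change of at least 5 it was 0.33 upward (107 promoters) and 0.32 downward (302 promoters). Over all 22862 genes with a single promoter in the table, tested or not, it was 0.374. Level genes, by comparison, had medians of 0.83 and 0.74.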

How the data were processed

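RNA was measured in 10 libraries: DN1, DN2a and DN2b cells (2 libraries each) and IgG control cultures (4). Stranded total RNA libraries were sequenced by the authors, who aligned the first 36 bases of read 1 to mm10 with TopHat and deposited raw read counts per gene made with htseq-count in intersection-strict mode. The submitters' processing notes list TopHat2 2.12, Cufflinks 2.2.1 and HTSeq 0.6.1p1. The annotation and strand setting are not given in the sources used here.

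The 5 summary lines of each file were left out. They held 16.4 to 30.1% of reads that did not map uniquely and 2.83 to 10.01% outside genes, shares of all reads in the file. Of 24062 genes listed, 12221 with at least 1 CPM in 2 or more libraries were tested, 6 Delta1 libraries against 4 controls, with edgeR 4.0.16 (R 4.3.3): TMM scaling, quasi-likelihood fit, 2 groups, Benjamini-Hochberg adjustment over all tested genes, threshold 0.05. Stage differences were an F test among DN1, DN2a and DN2b in a 4-group fit. Complete separation was read on TMM-scaled CPM. Values after ± are standard errors of the log2 fold change. Where an arm never exceeded 3 counts, a bound against 3 counts per library replaced the fitted fold. Depth was 12354635 to 35367925 reads on genes, and precision is limited by the number of libraries.

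Named genes were the 15 widest gaps and the 10 largest level changes in each direction, members of 26 gene lists, the genes at the edge of the rule and the 5 list members with the widest stage range. A few neighbours and parent genes of pseudogenes were added after their values were seen. Members and lists were chosen with earlier results of these data known. Gene positions and types come from GENCODE vM21, and promoters from the RefSeq table, where 7347 of 12221 tested genes (60.1%) had a single promoter, so promoter shares describe those genes only. Alternatives were DESeq2 1.42.0, other scalings and filters, sums per label year, the label year as a block, single stages and control pairs. Each library was also left out in turn, and the small count added in the fit was raised from 0.125 to 2. On simulated counts with 200 of 12221 genes changed by 2 (log2), 143 were recovered with 5 false calls. A few genes are not reported here.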

Additional observations from a re-analysis of the deposited data

Results flagged for a closer look

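In 17 of 120 groups of libraries checked, 1 library lay far from the others of its arm. By the 95% critical value used, chance gives about 1 in 20, and the groups share libraries and genes.

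DN1 replicate 1 accounted for most. Its list medians, as log2(CPM + 0.5), were the highest of the Delta1 arm for erythroid and megakaryocyte genes (5.41), mast cell and basophil genes (4.42), late neutrophil granule genes (3.48) and macrophage genes (0.564). The same library held the highest Delta1 value of Gzmb at 1940 CPM, and the lowest of the unnamed transcript A730098P11Rik at 105 CPM. It was also highest for macrophage transcripts that were close to 0 in every Delta1 library: C3ar1 at 0.260 CPM, Saa3 at 0.890 CPM, Trem2 at 0.297 CPM, Cxcl16 at 0.0742 CPM, C5ar1 at 0.631 CPM and Clec7a at 0.297 CPM. Msr1 at 0.0358 CPM in DN2a replicate 1 was a single read.

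Elsewhere, DN2b replicate 2 had 10.01% of its reads outside genes, the highest of the Delta1 arm. Control D2 had the most genes detected, 17089. The predicted gene Gm3258 was highest in DN2a replicate 2 at 17.01 CPM, and C3ar1 in control D1 at 1997 CPM.

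The contrast with the control also differed between stages by the F test in the 4-group fit. This held for 25 separated genes higher with Delta1 and 53 lower. Cd3g, among the widest gaps between arms, had stage means that ranged 25.7-fold, lowest in DN1. The 5 tested list members with the widest range were all highest in DN1: S100a9 at 2706-fold, S100a8 at 1606-fold and Ngp at 1316-fold, all neutrophil genes, and Fcer1a at 753-fold and Mcpt4 at 676-fold, both of mast cells. For the neutrophil genes most of that range came from DN1 replicate 1, for example 517 CPM of S100a8 against 13.6 CPM in replicate 2.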

How the results depend on the processing

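Of 191 named genes that passed, 151 kept direction and call under every alternative, and 3812 of 3975 single values did. Of the rest, 162 missed the threshold and Mcpt4 turned to -1.26 (log2) in DN2b alone. The 3975 values include a fit with a larger added count (2), which kept the main adjusted p, so its calls could not change. Among genes that had not passed, Fcer1a turned to -4.48 and Ms4a2 to -5.45 in DN2b alone, Itgax to -2.80 in DN2b alone and Flt3 to -2.29 in DN2a alone. Leaving out 1 library moved the fold change of 99 named genes by over 1.5 times, most often DN1 replicate 1 (39 genes), control D1 (28) and control D2 (28). Genes passing upward numbered 3208, and 2117 with counts summed per label year, 1948 against controls D1 and D2, 1193 for DN1 alone, 1991 for DN2b alone and 910 beyond a 2-fold change. Downward, the 3415 became 1711 for DN1 alone and 1716 beyond a 2-fold change. Genes without overlap became 432 (higher) and 1118 (lower) with a gap of at least 2-fold, and the higher ones 3505 with counts summed per label year and 3243 against controls R1 and R2. These alternatives hold fewer libraries or ask for larger changes. With DESeq2, 3373 and 3711 genes passed, 3192 and 3394 of them shared. Leaving out each library in turn gave 2492 to 3450 passing upward and 2866 to 3818 downward, and 2153 to 2745 and 2555 to 3141 without overlap. The highest of these came from leaving out DN1 replicate 1. Separated genes with a stage difference numbered 78, 382 by the DESeq2 likelihood ratio test and 50 from the 6 DN samples only. The count therefore depends on the test, and the cause was not tested. With the label year as a replicate block, 3011 genes passed upward, 3744 downward and 106 separated genes differed by stage. The pairing was uneven, since deviations of libraries of the same year correlated at 0.0717 (DN1 and DN2a), 0.222 (DN1 and DN2b) and 0.397 (DN2a and DN2b).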
